A study of Homo sapiens with 4 samples.

Results

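The 10 genes described here are feedback regulators and target genes of WNT/beta-catenin signalling: AXIN2, LGR5, NKD1, RNF43, ZNRF3, LEF1, TCF7, SP5, NOTUM and DKK1. They were selected by gene symbol from a table of 51103 genes, and all 10 symbols were found. The study measured polyadenylated RNA in AGS cells, a line established from a human gastric adenocarcinoma. One group had received recombinant human FGF2 at 20 ng/mL and was harvested 24 h later. The other group carries the label NC. The labels do not spell that name out, and the treatment text attached to it also mentions FGF2, so the agent or vehicle given to the NC cells is unknown here. Both groups are labelled AGS and share serum-containing medium, with no other agent or allele named, and each has 2 libraries.

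In the absence of WNT ligand, a cytoplasmic destruction complex built on APC and the axins marks beta-catenin for degradation. When a WNT ligand binds a frizzled receptor and an LRP co-receptor, beta-catenin accumulates, enters the nucleus and activates genes together with the TCF/LEF DNA-binding factors. Many of these genes encode brakes on the pathway itself, so their transcripts are widely used as readouts of beta-catenin activity. In the stomach LGR5 marks cells at the base of glands that can renew the epithelium. AGS cells are known to carry an activating mutation of the beta-catenin gene CTNNB1, which a table of gene counts does not show, so whether the cells measured here carry it is unknown.

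The 2 libraries of a group were not separate samples. In the FGF2 group the first library exceeded the second at 2 of 22043 detected genes, where 1192 would have been expected of unrelated libraries, and in the NC group at 2 of 22485, with 1214 expected. The second library of each group thus has the counts of one that contains the first. Total counts were 13790335 and 14073340 in the first FGF2 and NC libraries, against 27598608 and 27325697 in the second. Each group was therefore treated as 1 sample (n = 1), no test was possible, and no value below has a check by independent replicates. Levels and fold changes are from the second library. The first library, and the second less the first, served as 2 disjoint read sets per group. A gene is called higher or lower where both FGF2 read sets lay at least 1.5-fold beyond both NC read sets. This gauges noise between reads and does not cover a difference between cultures.

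The labelled cell type was checked against markers. The epithelial keratin genes KRT8 (191 to 270 FPKM, a level corrected for exon length and depth) and KRT18 (193 to 201 FPKM) were abundant. EPCAM, an epithelial adhesion gene, stood at only 0.518 to 1.19 FPKM, and CDH1, which encodes E-cadherin, at 0.0235 to 0.196 FPKM. Of 6 epithelial markers 5 were measured, and 1, the keratin gene KRT19, was higher and 0 were lower, with summed levels of 438 and 444 FPKM in the FGF2 libraries and 485 and 493 FPKM in the NC libraries. Of 9 fibroblast markers 4 were measured. In the FGF2 sample 3 of these (COL1A1, COL3A1 and PDGFRB, named after their values were seen) were lower. Beside both marker lists, 3.62% of all genes measured were higher and 7.35% lower. COL3A1 had 6 and 0 counts in the FGF2 read sets against 65 and 72 in the NC ones. It reached the minimum of about 10 counts only in the NC sample, so it was bound to be lower. The fibroblast list summed to 83.8 and 84.3 FPKM in the FGF2 libraries and to 141 and 145 FPKM in the NC libraries. COL1A1 stood at 59.5 to 104 FPKM, THY1 at 18.0 to 18.9 FPKM and PDGFRB at 5.96 to 21.6 FPKM. COL3A1 stood at only 0.0319 to 0.736 FPKM, LUM at 0 to 0.189, DCN at 0 to 0.0228 and PDGFRA at 0 to 0.0149. COL1A2 and FAP were at 0 in every library. CDH1 and EPCAM were thus low beside abundant KRT8 and KRT18, and fibroblast markers were mixed, with COL1A1, PDGFRB and THY1 the most abundant. These levels do not settle the identity of the cells, which is uncertain and was not tested further. The part of these markers in the differences below was not tested. As a check of the treatment, 10 of 10 known transcriptional targets of the FGF-ERK route were higher, beside 3.62% of all genes measured. Among them were DUSP6 at a log2 fold change of 3.50, SPRY4 at 3.33, ETV4 at 2.46 and ETV5 at 2.07. The list was chosen with earlier results of these data known, so it is not an independent check. The value of DUSP6 is uncertain, since 40.5% of its exonic bases overlap an antisense gene.

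The WNT feedback and target genes are described by level, and the count minimum decided which of the less abundant ones were measured. DKK1, ZNRF3 and TCF7, the 3 most abundant, differed little between the FGF2 and NC samples. SP5, AXIN2 and LGR5, present at low levels in the NC sample, were lower in the FGF2 sample, SP5 by 5.32-fold and AXIN2 by 2.80-fold. LGR5 had 2 counts against 45, too few in the FGF2 sample to fix the size of its fold. The other 4 (NOTUM, NKD1, RNF43 and LEF1) had too few counts to be measured. Thus 3 of the 6 measured members were lower and 0 were higher. Over all 14043 genes measured, 7.35% were lower and 3.62% higher by the same rule. Among the 3043 of these with a mean under 50 counts per read set, where SP5, AXIN2 and LGR5 lie, 14.8% were lower and 5.59% higher. Among the 11000 with a mean of at least 50, where DKK1, ZNRF3 and TCF7 lie, 5.3% were lower and 3.08% higher. SP5, AXIN2 and LGR5 reached the count minimum in both NC read sets and in neither FGF2 read set. A gene that passes in this way is bound to differ, so the count of 3 supports nothing beyond their own values. In bulk RNA, fewer cells expressing a gene and less RNA per cell cannot be told apart.

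**Figure D1:**
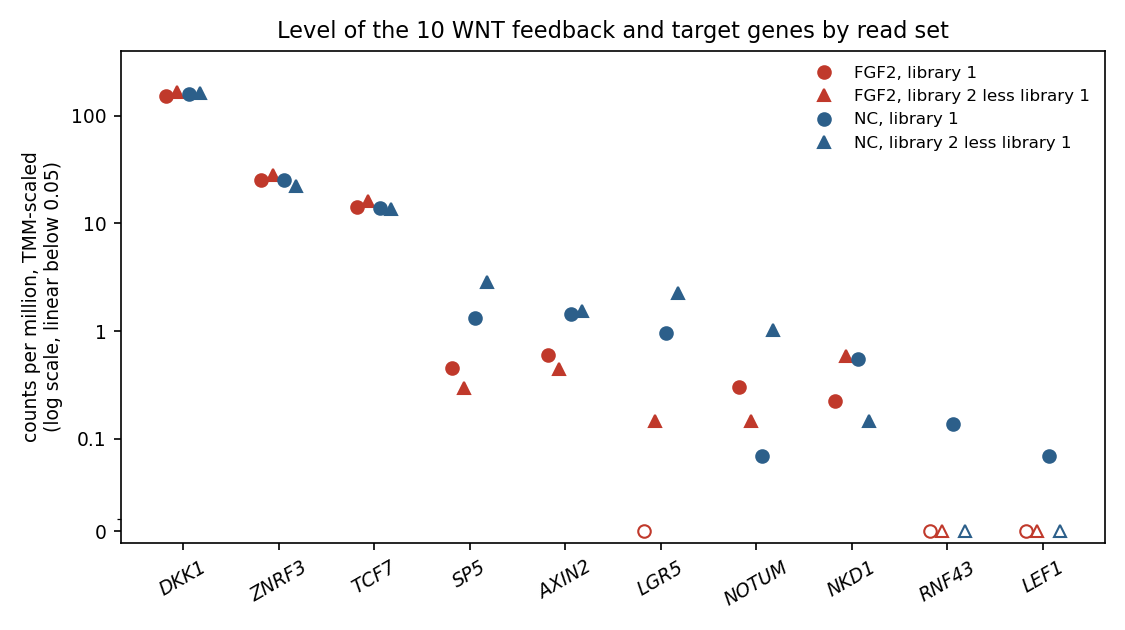
Level of each of the 10 genes in CPM scaled by TMM (vertical axis, logarithmic above 0.05 and linear below), in the 2 disjoint read sets of the FGF2 sample (red) and of the NC sample (blue). Open symbols mark a count of 0. The red and blue symbols of SP5, AXIN2 and LGR5 do not overlap, while those of DKK1, ZNRF3, NOTUM and NKD1 do and those of TCF7 lie side by side. The gap at SP5, AXIN2 and LGR5 follows from their reaching the count minimum only in the NC sample.

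Stretches before the transcription start are shown for SP5, a lower member, and for DKK1, the most abundant one, because both genes are known beta-catenin targets and these windows hold words of the kind that TCF/LEF factors bind. The sequences are the 250 bases before the RefSeq start on GRCh38.p14, both on the plus strand, at chr2:170715087-170715336 for SP5 and chr10:52314031-52314280 for DKK1. Capitals mark the word CTTTGNN with A or T at each N, or its reverse complement.
SP5: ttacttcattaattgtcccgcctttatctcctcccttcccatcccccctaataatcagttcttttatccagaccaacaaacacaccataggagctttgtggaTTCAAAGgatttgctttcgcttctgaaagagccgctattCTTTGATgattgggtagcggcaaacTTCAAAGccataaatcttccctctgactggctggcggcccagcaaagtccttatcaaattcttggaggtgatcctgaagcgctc
DKK1: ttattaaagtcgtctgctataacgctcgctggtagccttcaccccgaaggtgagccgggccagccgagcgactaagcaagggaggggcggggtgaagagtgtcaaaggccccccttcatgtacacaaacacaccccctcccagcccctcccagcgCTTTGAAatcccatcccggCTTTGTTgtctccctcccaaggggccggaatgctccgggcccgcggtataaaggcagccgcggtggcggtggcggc
The SP5 window held 3 such words, beginning at positions -148, -109 and -84 from the start, and the DKK1 window held 2, at -95 and -76. Any such word was present in 12.0% of the 35116 RefSeq windows of the same length. Of the 10 members 5 had entries: besides these, one of the 2 TCF7 starts held 1 word, and the LEF1 start and both RNF43 starts held 0. A match is a run of letters and not a measured binding site.

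AXIN2 encodes the scaffold of the destruction complex that beta-catenin induces as a direct feedback brake, and its transcript is a widely used readout of the pathway. It lies on chromosome 17, 65528563 to 65561647 on the minus strand of GRCh38 in GENCODE v29 (ENSG00000168646). AXIN2 had 8 and 14 counts in FGF2 libraries 1 and 2 (0.111 and 0.0971 FPKM) and 21 and 42 in NC libraries 1 and 2 (0.286 and 0.294 FPKM). As disjoint read sets these are 8 and 6 counts against 21 and 21. AXIN2 reached the count minimum only in the NC sample, so the lack of overlap was fixed by the filter and is no support. The log2 fold change of AXIN2 was -1.49 (95% exact Clopper-Pearson interval of the counts -2.51 to -0.62), and the disjoint read sets gave -1.22 and -1.71. Such intervals cover counting error only and take reads as independent. A readthrough gene on the same strand, AC004805.1, shares 25.2% of AXIN2 exon sequence and had 0 counts in both second libraries. How the authors' counting treated reads from shared exons is not stated in the labels.

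LGR5 encodes a receptor for R-spondins, secreted proteins that strengthen WNT signalling, and lies on chromosome 12, 71439770 to 71586310 (ENSG00000139292, plus strand). LGR5 had 0 and 2 counts in FGF2 libraries 1 and 2 (0 and 0.0138 FPKM) and 14 and 45 in the NC libraries (0.189 and 0.314 FPKM). The count of 0 allows up to 0.0414 FPKM, taking 3 counts as the limit. Both NC read sets, with 14 and 31 counts, lay above both FGF2 read sets, with 0 and 2. That order follows from LGR5 reaching the count minimum only in the NC sample. The log2 fold change of LGR5 was -4.12 (-7.51 to -2.49), the farthest from 0 of the 8 members with a fold change and, of the 3 lower members, the one with the widest interval. Its size depends on the 0.5 added to each count, and with 5 added it was -2.77. Low counts tended to come in pairs: of the 1259 genes that had 2 counts in the second FGF2 library, the first held exactly 1 of them at 291, where 629 would be expected of independent reads. The 2 LGR5 counts need not be independent fragments, so that interval is too narrow. In the NC group the first library held exactly 1 at 271 of 1298 such genes, where 648 would be expected. Intervals of other genes with few counts, AXIN2 and SP5 among them, may likewise be too narrow. Without FGF2 library 2 the LGR5 value was -5.43, and without NC library 2 it was -3.43.

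SP5 encodes a zinc-finger transcription factor that beta-catenin induces and that can repress other WNT targets (ENSG00000204335, chromosome 2, 170715351 to 170718078, plus strand, the gene whose upstream bases are printed above). SP5 had 6 and 10 counts in FGF2 libraries 1 and 2 (0.211 and 0.176 FPKM) and 19 and 58 in the NC libraries (0.655 and 1.03 FPKM). The FGF2 read sets held 6 and 4 counts and the NC read sets 19 and 39. SP5 too reached the count minimum only in the NC sample, which fixes that order. The NC read sets of SP5 differed more from each other than the FGF2 ones did. The log2 fold change of SP5 was -2.41 (-3.60 to -1.49), and the disjoint read sets gave -1.47 and -3.12, the former just outside the interval. Without NC library 2 the SP5 value was -1.79. No other gene model shares its exons.

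For scale, the read sets within a group were compared at genes of a similar level. At the 2446 genes with a mean of 6.2 to 34.0 counts per read set, the 2 FGF2 read sets differed by at least 1.5-fold at 45.3% of genes and the 2 NC read sets at 41.6%, by a median of 1.43-fold and 1.38-fold. Of these genes 15.2% were called lower and 6.17% higher, with a median log2 fold change of -0.22. AXIN2, LGR5 and SP5 were also past 2-fold in both read sets, as were 7.72% (lower) and 3.42% (higher) of measured genes under 50 counts.

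**Figure D2:**
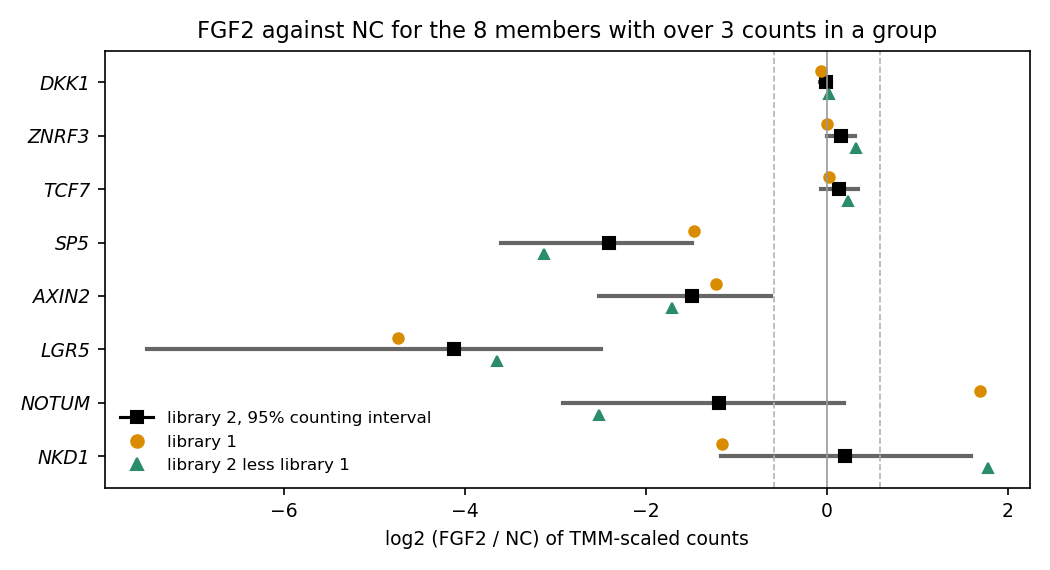
Log2 ratio of FGF2 over NC (horizontal axis) for the 8 members with over 3 counts in a group. Squares and bars give the second library with its 95% counting interval, circles the first library and triangles the other reads, and dashed lines mark 1.5-fold. SP5, AXIN2 and LGR5 lie left of the dashed line in every symbol, DKK1, ZNRF3 and TCF7 lie between the lines, and NOTUM and NKD1 have symbols on both sides of 0.

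DKK1 encodes a secreted inhibitor that binds LRP co-receptors and is itself induced by beta-catenin (ENSG00000107984, chromosome 10, 52314296 to 52318042, plus strand). At 66.1 and 70.0 FPKM in the FGF2 libraries and 73.0 and 74.4 FPKM in the NC libraries, DKK1 was the most abundant member, above 97.4% of protein-coding genes in FPKM. Its counts were 2011 and 4260 against 2267 and 4484. After scaling, the read sets stood at 151 and 166 CPM (counts scaled to a common library size) in the FGF2 sample and 157 and 162 in the NC sample, so the groups overlapped. The log2 fold change of DKK1 was -0.01 (-0.07 to 0.05), and a difference of 1.5-fold lies far outside that counting interval. An antisense gene, PRKG1-AS1, shares 9.6% of DKK1 exon sequence and had 17 and 9 counts in the second libraries. Since the kit keeps no strand information, reads from the shared part cannot be assigned.

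ZNRF3 encodes a membrane ubiquitin ligase that removes frizzled receptors from the cell surface (ENSG00000183579, chromosome 22, 28883592 to 29057487, plus strand). ZNRF3 stood at 3.48 and 3.71 FPKM in the FGF2 libraries and at 3.70 and 3.51 FPKM in the NC libraries, from 334 and 713 against 363 and 669 counts. The scaled read sets overlapped, with 25.1 and 28.0 CPM in the FGF2 sample against 25.2 and 22.4. Its log2 fold change was 0.16 (0.00 to 0.31).

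TCF7 encodes TCF1, one of the TCF/LEF factors and itself a target of the pathway (ENSG00000081059, chromosome 5, 134114711 to 134151865, plus strand). TCF7 stood at 1.37 and 1.47 FPKM in the FGF2 libraries and at 1.42 and 1.40 FPKM in the NC libraries, with 190 and 407 against 201 and 386 counts. The FGF2 read sets, at 14.3 and 16.0 CPM, lay above the NC ones, at 13.9 and 13.5, but by far less than 1.5-fold. Its log2 fold change was 0.14 (-0.06 to 0.35). TCF7 shares 2.1% of its exon sequence with SKP1, an abundant gene on the opposite strand with 3442 and 3520 counts. At the 5202 genes of a level like that of ZNRF3 and TCF7, read sets of a group differed by 1.5-fold at only 1.61% (FGF2) and 1.44% (NC) of genes.

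NOTUM, NKD1, RNF43 and LEF1 did not reach the count minimum. NOTUM encodes a secreted enzyme that inactivates WNT ligands by removing their lipid. It had 4 and 6 counts in FGF2 libraries 1 and 2 and 1 and 15 in the NC libraries, and the disjoint read sets gave log2 fold changes of 1.70 and -2.52, so no direction was detectable. NKD1 encodes a cytoplasmic antagonist that binds dishevelled. Its counts were 3 and 11 against 8 and 10, with -1.16 and 1.78 from the 2 read sets, likewise opposite in sign. RNF43, the ubiquitin ligase related to ZNRF3, had 0 counts in both FGF2 libraries and 2 in both NC libraries. Over the full exon length, the 0 of FGF2 library 2 allows up to 0.0145 FPKM. RNF43 shares 59.5% of its exon sequence with other genes on the same strand and 20.3% with one on the opposite strand. AC004687.2, the gene model that shares most of it, had 2 and 0 counts in the second FGF2 and NC libraries. If reads from shared exons were left out, the limit for RNF43 is too low, and its level is therefore uncertain. LEF1, the other TCF/LEF factor among the members, had 0 counts in both FGF2 libraries and 1 in both NC libraries, and its 0 in FGF2 library 2 allows up to 0.0203 FPKM. No fold is given for RNF43 or LEF1, since both groups were at or under 3 counts.

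On the per-length FPKM scale the order of levels in NC library 2 was DKK1, ZNRF3 (3.51), TCF7 (1.40), SP5 (1.03), LGR5 (0.314), AXIN2 (0.294), NOTUM (0.182), NKD1 (0.0210), RNF43 (0.00975) and LEF1 (0.00683). DKK1, ZNRF3 and TCF7 kept this order in all 4 libraries, while the place of RNF43 is uncertain because it shares exons. In NC library 1 LGR5 (0.189) lay below AXIN2 (0.286) and NOTUM (0.0235) below NKD1 (0.0326), so these neighbours did not differ beyond the spread between libraries. In FGF2 library 2 the order was the same down to SP5 (0.176), followed by AXIN2 (0.0971), NOTUM (0.0720), NKD1 (0.0229) and LGR5 (0.0138). LGR5 thus went from the fifth place to the eighth, and AXIN2 lay above only 39.7% of protein-coding genes in mean FPKM of both samples.

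**Figure D3:**
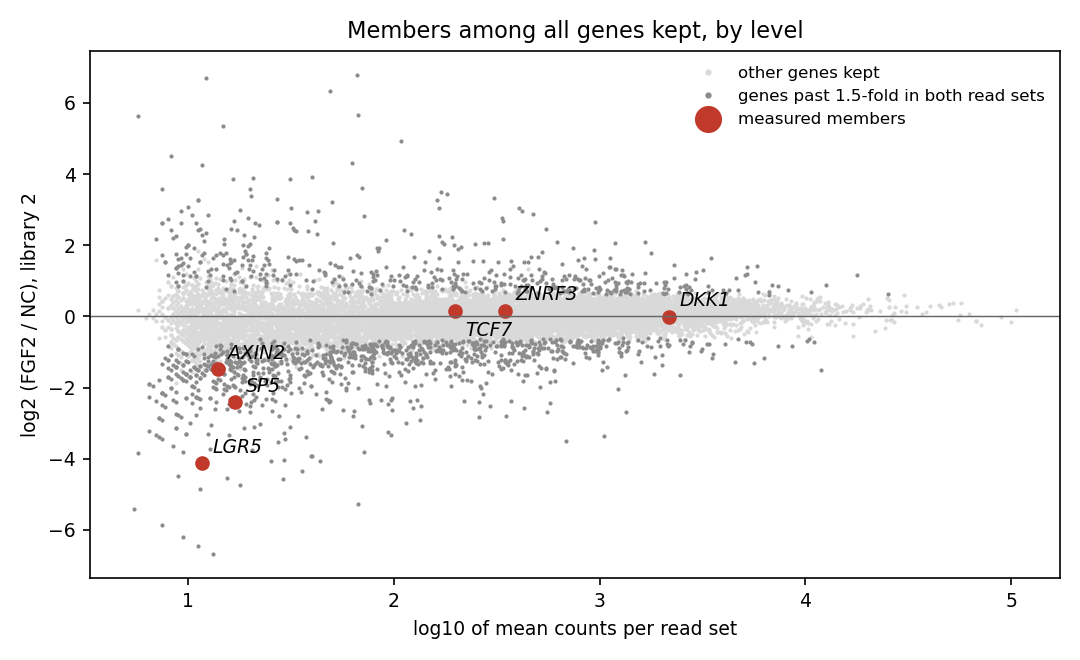
Log2 ratio of FGF2 over NC in the second libraries (vertical axis) against the log10 of mean counts per read set (horizontal axis) for the 14043 genes measured. Dark grey points are past 1.5-fold in both read sets, light grey points are not, and red points are the 6 measured members. SP5, AXIN2 and LGR5 sit in the low-count range where grey points also spread widely, and DKK1, ZNRF3 and TCF7 sit near 0.

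The rest of the pathway was read from 7 lists by role, with 151 genes besides the members, of which 108 were measured. Of these 8 (7.41%) were higher and 16 (14.8%) lower, beside 3.62% and 7.35% over all genes measured. Their median log2 fold change was 0.01 against 0.00 over all genes measured. With a mean of at least 50 counts required, 8 were higher and 8 lower, counts that are not given as shares. Over all 11000 genes measured at that level, 3.08% were higher and 5.3% lower. Of the 16 lower genes 6 reached the count minimum in both NC read sets but not in both FGF2 read sets. Those that reached it in neither FGF2 read set were bound to differ. At ligand level, 10 of 19 WNT genes were measured and 5 were lower, 0 higher, with a median of -0.71. The 5 are named after their values were seen, since each had a mean under 50 counts. Among all measured genes under that mean, 14.8% were lower and 5.59% higher. WNT2 had 4 counts in FGF2 library 2 and 112 in NC library 2, a log2 fold change of -4.58 (-6.64 to -3.34). WNT6 followed at -4.53 (2 against 60 counts), WNT10A at -3.63 (2 against 32), WNT9A at -1.72 (20 against 70) and WNT2B at -0.89 (45 against 88). WNT2, WNT6 and WNT10A reached the count minimum only in the NC sample, as did the 3 lower members. WNT9A reached it in both NC read sets and in 1 FGF2 read set, which favoured a difference but did not fix it. The median of -0.71 includes these genes. WNT2B overlaps an antisense gene over 21.2% of its exonic bases. The more abundant ligand genes did not meet the bound: WNT7B stood at 19.6 against 18.2 FPKM and WNT5A at 6.05 against 9.28 FPKM. WNT5B, at 4.88 against 3.06 FPKM, had a log2 fold change of 0.75 (0.56 to 0.95), and its read sets gave 0.97 and 0.54, past a bound of 1.2-fold but short of 1.5-fold. Of 7 genes of WNT secretion and R-spondin-type agonists 2 were measured and 0 were called: PORCN, which attaches the lipid to WNT ligands (0.55, 0.38 to 0.73), and WLS, which carries them to the cell surface (0.25, 0.18 to 0.33). Both are named after their values were seen.

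Receptor and cytoplasmic genes had medians near 0. Of 15 receptor genes measured 1 was lower, FZD6, a frizzled gene (-0.66, -0.77 to -0.54), and 0 were higher, with a median of -0.06. LGR4, the R-spondin receptor related to LGR5, stood at 6.64 against 7.32 FPKM (-0.06, -0.18 to 0.05), and the co-receptor genes LRP5 and LRP6 at -0.04 and 0.07. Among 25 cytoplasmic genes 0 were higher and 2 lower, with a median of 0.02. Over all genes measured 3.62% were higher and 7.35% lower, and these small counts are not read as a result about either list. CTNNB1 itself stood at 25.1 against 24.7 FPKM (0.11, 0.06 to 0.15), the AXIN2 paralog AXIN1 at 0.01 (-0.07 to 0.09), APC at 0.27 (0.15 to 0.39) and GSK3B, the kinase of the destruction complex, at 0.02 (-0.05 to 0.10). The lower ones were APC2 (-0.89, -1.21 to -0.58), a paralog of APC, and DACT1, a dishevelled-binding regulator (-1.95, -2.58 to -1.39). DACT1 lay under 50 counts and is named after its value was seen.

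Of 22 nuclear genes measured 1 was lower and 0 were higher. That gene was TCF7L1, which encodes the mainly repressive TCF factor TCF3 (2.78 against 5.51 FPKM, -0.91, -1.10 to -0.72), while TCF7L2 stood at 0.18 (0.02 to 0.34). Of 8 genes measured from the list of secreted or membrane inhibitors, 1 was higher and 2 were lower. Beside the nuclear and inhibitor lists, 3.62% of all genes measured were higher and 7.35% lower. SFRP1, a secreted frizzled-like protein that binds WNT ligands, was higher at 22.1 against 11.5 FPKM (1.03, 0.94 to 1.12). The glypican gene GPC4, which is on that list but is not an established inhibitor, was lower at -0.98 (-1.12 to -0.84). APCDD1, a membrane inhibitor that beta-catenin induces, was lower at -2.34 (-3.36 to -1.52) on 13 against 71 counts. APCDD1 reached the count minimum only in the NC sample and is named after its value was seen.

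Other genes known as beta-catenin targets in some tissue went both ways, with 7 of 27 higher and 5 lower (median 0.11). Over all genes measured 3.62% were higher and 7.35% lower. The route that led to the differences of these targets was not tested. The higher ones were PLAUR (2.86), SOX9 (1.93), FOSL1 (1.65), CCND1 (1.42), ENC1 (1.23), CD44 (1.17) and VEGFA (1.13). SOX9, a transcription factor of gut progenitor cells, stood at 21.5 against 5.97 FPKM. FOSL1 was also on the list of FGF and ERK responses used for the treatment check, so it was not independent of it. CCND1 overlaps an antisense gene over 10.3% of its exonic bases. The lower ones were ID2 (-2.58), LBH (-2.43), FGF18 (-1.77), TNFRSF19 (-1.41) and BMP4 (-1.30), of which FGF18 had under 50 counts per read set, reached the count minimum only in the NC sample and is named after its value was seen. BMP4, a secreted growth factor of the TGF-beta family, stood at 9.78 against 25.6 FPKM. ASCL2, a WNT target of intestinal stem cells, had 0 counts in all libraries.

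**Figure D4:**
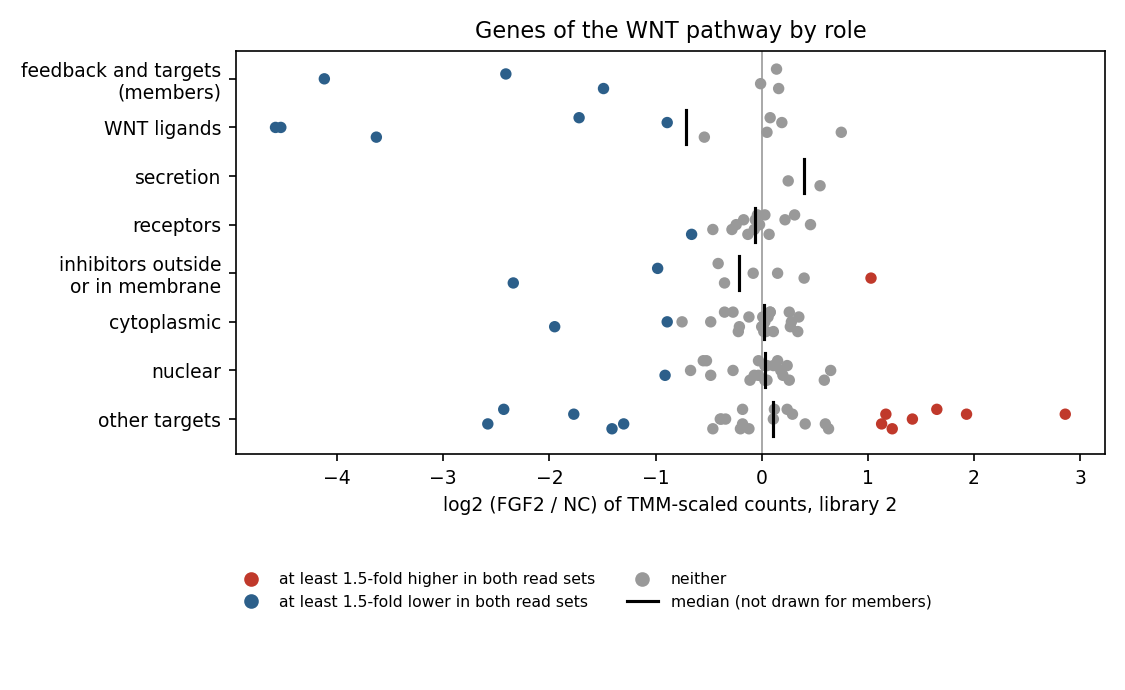
Log2 ratio of FGF2 over NC in the second libraries (horizontal axis) for each measured gene of the pathway, by role (rows, with a small vertical offset between points). Red points were called higher and blue points called lower at 1.5-fold, and bars give the median of each list other than the members. Receptor, cytoplasmic and nuclear genes lie mostly near 0, the 5 blue ligand points reach -4.58, and the other targets hold both 7 red and 5 blue points.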

How the data were processed

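Polyadenylated RNA of 4 AGS libraries was analysed. The authors deposited raw read counts and FPKM per gene, per the file headers. The submitters' processing notes name HISAT2, HTSeq 0.13.5 and GRCh38, with no annotation release. Gene lengths implied by the FPKM values equalled GENCODE v29 merged exon lengths at 99.5% of 11923 genes with over 20 counts, so that release was used for coordinates. Disjoint read sets were formed by subtraction. Genes were kept by edgeR 4.0.16 filterByExpr (about 10 counts in both sets of a group) and scaled by TMM. Fold changes have 0.5 added to each count, and intervals are 95% exact Clopper-Pearson.

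Because the libraries of a group share reads, the edgeR test foreseen for separate samples was not run, and a rule of size (1.5-fold in both read sets) took its place. The scripts were tested on simulated data. Named were all 10 members, listed core pathway genes (CTNNB1, AXIN1, APC, GSK3B, TCF7L1, TCF7L2, LGR4, LRP5, LRP6), DUSP6, SPRY4, ETV4 and ETV5 as treatment check, and every called pathway gene whose mean reached 50 counts per read set. The members and lists were chosen with earlier results of these data known. Older and newer symbols were matched by gene ID. With 1 sample per group, no gene was ranked by likeness of pattern. Markers of epithelial, fibroblast, endothelial (2 of 5 measured, 0 called) and blood cells (1 of 6 measured, 0 called) were fixed lists. Alternatives covered scaling, filter, fold bound, added count, unit and library. Python 3.11.15 and SciPy 1.17.1 were used.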

Additional observations from a re-analysis of the deposited data

How the results depend on the processing

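AXIN2, LGR5 and SP5 were called lower under both other scalings, with each library left out, at 1.2-fold and 2-fold and with all genes of at least 1 count. These repeats are not independent support. The 3 genes reached the count minimum only in the NC sample, and the second library of a group contains the reads of the first. With a minimum mean of 50 counts the number of members called lower was 0 because none of the 3 reaches it. No member was called higher under any of these settings. Leaving out the first library of a group cannot move a fold change, which comes from the second. Of 72 log2 fold changes of 8 members recomputed under the other settings, 63 stayed within the counting interval. With 5 added to each count LGR5 was at -2.77 in place of -4.12. On log2(FPKM + 1), which compresses low values, AXIN2 was at -0.24, LGR5 at -0.37 and SP5 at -0.79. Without FGF2 library 2 LGR5 was at -5.43, and without NC library 2 LGR5 was at -3.43, SP5 at -1.79 and NOTUM at 1.22 in place of -1.19. Scaling by total count alone moved the median of all genes to -0.083.

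Over all genes the 509 higher and 1032 lower became 1659 and 2234 at 1.2-fold, 222 and 414 at 2-fold, 339 and 583 with a mean of at least 50 counts, and 1156 and 2027 with all genes of at least 1 count. Leaving out 1 library gave 681 to 799 higher genes, because fewer read sets had to pass. Total count scaling gave 417 higher and 1229 lower. Among the other pathway genes, the 8 higher and 16 lower became 18 and 24 at 1.2-fold, 6 and 10 at 2-fold, and 8 and 8 with a mean of at least 50 counts. No paired analysis was possible because the libraries of a group share reads and were counted as 1 sample, and for the same reason edgeR and DESeq2 tests were not run. Members under 50 counts are limited by depth.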
